A study of Mus musculus with 18 samples.

Results

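Gene expression in the distal colon of mice was compared between the lit and the dark hours of the day, using all 18 arrays of a time series. The 9 arrays titled 8am, 12pm or 4pm were set against the 9 titled 8pm, 12am or 4am, by lights on at 7 AM and lights off at 7 PM. The mice had lived on this cycle for 2 weeks with free access to food. Tissue was cut just above the anus every 4 h, and total RNA was hybridised to Affymetrix MOE430 2.0 whole-genome arrays, 3 per collection time (a, b and c). The labels give no strain, age or sex and do not say whether mucosa was parted from muscle. Nor do they tell separate mice from pools among the arrays of a time, so p-values here measure the spread between these samples, which may be technical. Of the genes on the array, 12870 had a probe set with 1 symbol and enough signal to be tested.

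The circadian clock of a cell is a loop in which the activators CLOCK and ARNTL switch on their own repressors, the Per and Cry genes, and the nuclear receptors Nr1d1 and Nr1d2, which repress Arntl in turn. The loop also drives output transcription factors, among them Dbp, Tef and Hlf. Clock transcripts peak at every hour of the day, so an average over the lit hours against the dark hours catches only those whose peak lies well within one phase. The lining of the colon is renewed by division of cells near the crypt base, and the genes of mitosis are switched on together as a cell enters division.

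Because both gene groups are described in detail, 4 upstream regions are shown, for the 250 bases before the annotated start (RefSeq, build GRCm38.p6), which were found for 10323 of the 12870 genes. The first pair belongs to mitosis genes and has the cell cycle homology region (CHR, letters TTTGAA on either strand) in capitals. The second pair belongs to clock genes and has the E-box (CACGTG, the same on both strands), the element that CLOCK and ARNTL bind, in capitals.
Cdc20, chr4:118437344-118437593, minus strand: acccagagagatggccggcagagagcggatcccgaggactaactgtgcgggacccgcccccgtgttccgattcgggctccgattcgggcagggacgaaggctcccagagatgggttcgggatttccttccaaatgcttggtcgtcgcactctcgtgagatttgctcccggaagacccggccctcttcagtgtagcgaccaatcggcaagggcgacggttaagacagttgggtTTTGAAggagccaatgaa
Mki67, chr7:135716380-135716629, minus strand: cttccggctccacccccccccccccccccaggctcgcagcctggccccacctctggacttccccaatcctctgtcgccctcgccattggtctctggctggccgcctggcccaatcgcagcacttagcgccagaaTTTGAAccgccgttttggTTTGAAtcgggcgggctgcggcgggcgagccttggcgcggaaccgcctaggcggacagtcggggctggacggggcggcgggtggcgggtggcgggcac
Cry1, chr10:85185055-85185304, minus strand: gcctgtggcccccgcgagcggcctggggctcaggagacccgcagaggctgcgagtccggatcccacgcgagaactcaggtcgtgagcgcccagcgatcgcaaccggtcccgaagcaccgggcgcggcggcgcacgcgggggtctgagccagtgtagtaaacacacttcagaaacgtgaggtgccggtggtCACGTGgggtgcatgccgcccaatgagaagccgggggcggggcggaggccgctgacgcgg
Tef, chr15:81802423-81802672, plus strand: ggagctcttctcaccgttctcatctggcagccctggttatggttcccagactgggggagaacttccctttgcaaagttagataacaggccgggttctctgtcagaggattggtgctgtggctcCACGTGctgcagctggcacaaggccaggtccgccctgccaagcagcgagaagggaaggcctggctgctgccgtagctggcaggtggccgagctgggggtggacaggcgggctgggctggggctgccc
The CHR letters were in 12 of the 32 mitosis genes with a region (37.5%) and in 10.8% of all 10323 regions. The CCAAT box (CCAAT, either strand), which often lies beside a CHR, was in 24 of those 32 (75%) and in 35.7% of all regions. The E-box was in 4 of 13 core clock genes (30.8%), in 3 of 9 clock output genes (33.3%) and in 8.24% of all regions. The heat shock element (GAANNTTC) was in 6 of 17 heat shock genes (35.3%) and in 4.87% of all regions. These are counts of letters in a window, not measured binding.

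The arrays differed in RNA quality and in tissue content. The signal ratio of the 3′ to the 5′ control probe set for Gapdh, which rises as RNA breaks down, was 34.3, 36.0, 18.2 and 2.33 in the arrays 4pm b, 4am a, 4am b and 4pm c, against 0.746 to 1.12 in the remaining 14. The first 3 of these 4 arrays are the ones left out in the comparison of 15 arrays, with 8 light and 7 dark arrays and 4am c as the only array of its time. Its spread is then assumed to be that of the other times. The 6 arrays of 8am and 8pm stood apart in another way, with 346 genes (2.69%) that did not overlap the other 12 arrays. The same count was 0.769% for 12pm and 12am and 0.971% for 4pm and 4am. Some genes of the exocrine pancreas were low in all 8am and 8pm arrays and high in some others. The carboxypeptidase gene Cpa1 was between 4.51 and 4.93 on the log2 scale in those 6 arrays. It was between 5.53 and 14.27 in the other 12. Sycn and Cela1, of the same pancreas list, were at 12.58 or above in all 18 arrays. Each such pair of times 12 h apart holds 1 time in the light and 1 in the dark. The defining markers of the colon were present in both phases: the sum of signals over 18 colonocyte genes ran from 140742 to 247733 in the light and from 134462 to 243203 in the dark. Smooth muscle genes were present too, with sums of 82379 to 144705 and 64907 to 149097.

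**Figure D1:**
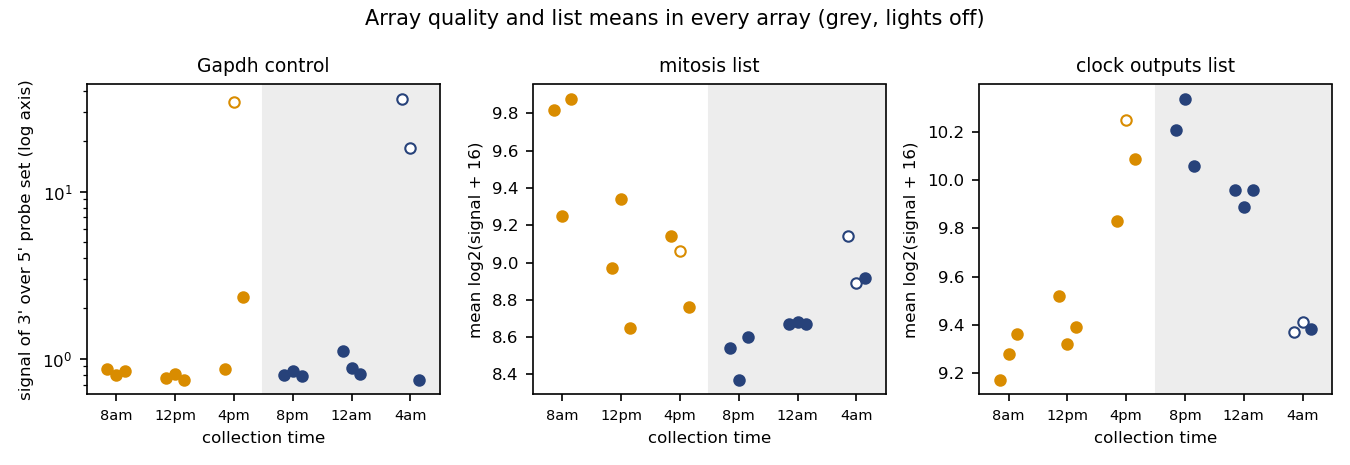
Each point is 1 array, placed by collection time, with the dark times on grey; open points are 4pm b, 4am a and 4am b. The left panel shows the Gapdh ratio on a log axis, the middle and right panels the mean log2(signal + 16) over the tested genes of the mitosis list (38) and the clock outputs list (11). The 3 open points have ratios of 18.2 or more; the mitosis mean runs from 8.65 to 9.88 in the light and from 8.37 to 9.14 in the dark.

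With all 18 arrays no gene passed an adjusted p of 0.05 (0 of 12870, 0%, limma with Benjamini-Hochberg adjustment), and the lowest adjusted p was 0.08692. The labelled phases also failed to separate any gene fully: for 0 genes (0%) did the 9 light arrays lie all above or all below the 9 dark arrays. At an unadjusted p under 0.05 there were 492 genes higher in the light (3.82%) and 307 lower (2.39%). With each array centred on its median those counts became 635 and 248. Of all genes tested, 51.4% were higher in the light. Differences were small, with a median size of 0.14 on the log2 scale against a median standard error of 0.17. A difference of 1.5-fold or more was seen for 290 genes higher in the light and for 57 lower.

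Without 4pm b, 4am a and 4am b, 2 genes passed (0.0155%): the clock repressor gene Nr1d1 was higher in the light and the clock gene Per2 was lower, both with an adjusted p of 0.02975. In these 15 arrays 358 genes were higher (2.78%) and 333 lower (2.59%) at an unadjusted p under 0.05, or 700 and 182 with each array centred on its median. Differences of 1.5-fold or more were now seen for 73 genes higher and 89 lower. On the deposited scaling, higher genes thus outnumbered lower ones with 18 arrays and not with 15 at this fold; with median centring the unadjusted counts above leaned to higher genes in both sets. The median over all genes of 4pm minus 4am was 0.12 with all arrays and 0.024 without the 3. The count of calls with 18 arrays turned on 1 array: 955 genes passed without 4am c, which leaves 4am a and 4am b alone at their time, while 2 passed without 4pm b and 1 without 4pm c. No gene passed without any of the other 15 arrays in turn.

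Nr1d1 (chromosome 11, 98767932 to 98775377), which codes for the repressor REV-ERB alpha, had the strongest evidence of any gene higher in the light. On the log2(signal + 16) scale, in which 1 unit is a doubling, the 8am arrays had 8.83, 8.51 and 10.15, the 12pm arrays 10.92, 10.42 and 10.52, and the 4pm arrays 10.33, 8.84 and 10.03. In the dark the 8pm arrays had 9.36, 9.36 and 9.35, the 12am arrays 8.10, 8.77 and 8.61, and the 4am arrays 5.99, 6.95 and 7.66. The 12pm arrays were the highest and the 4am arrays the lowest, and 6 of 9 light arrays lay above every dark array. The difference was 1.60 ± 0.26 (SE) with 18 arrays (adjusted p = 0.08692) and 1.48 ± 0.22 with 15 (adjusted p = 0.02975). It was uneven over the day, with −0.20 for 8am minus 8pm, 2.13 for 12pm minus 12am and 2.86 for 4pm minus 4am.

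Per2 (chromosome 1, 91415977 to 91459351), a repressor of CLOCK and ARNTL, was the only other gene to pass with 15 arrays. The 8am arrays had 8.66, 8.68 and 8.17, the 12pm arrays 8.34, 7.86 and 7.97, and the 4pm arrays 9.14, 10.22 and 9.29. After lights off the 8pm arrays had 9.51, 10.14 and 9.70, the 12am arrays 9.23, 8.98 and 9.60, and the 4am arrays 10.06, 10.14 and 9.79. All 6 arrays of 8am and 12pm lay below every dark array, and the highest light value came from 4pm b. The difference was −0.98 ± 0.16 with 18 arrays (adjusted p = 0.08692) and −1.02 ± 0.15 with 15 (adjusted p = 0.02975). Both other probe sets of Per2 had the same sign, with −0.57 and −0.43 over 18 arrays. When each of 14 of the 15 arrays was left out in turn, the Nr1d1 difference stayed between 1.32 and 1.59 and that of Per2 between −1.07 and −0.96. The adjusted p of both rose above 0.05 without 8am a, 12pm b, 12pm c, 4pm a, 4pm c or any 1 of the 8pm arrays, reaching 0.1282 without 4pm a, and Per2 alone reached 0.07341 without 8am c. Leaving out 4am c gives no value, since its time would be empty.

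Cry1 (chromosome 10, 85131700 to 85185054), whose upstream region is shown above with its E-box 60 bases before the start, was the gene with the next lowest p that was lower in the light. It ran from 7.14 to 9.03 (median 7.86) in the light and from 8.24 to 10.48 (median 9.10) in the dark. The arrays 4am a and 4am b gave the top values and 12pm a the lowest, and 6 of 9 light arrays lay below every dark array. The difference was −1.21 ± 0.22 with 18 arrays (adjusted p = 0.1483) and −0.95 ± 0.23 with 15 (adjusted p = 0.4522), so it did not pass. Its pair values were 0.01 at 8 o'clock, −1.58 at 12 and −2.05 at 4.

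**Figure D2:**
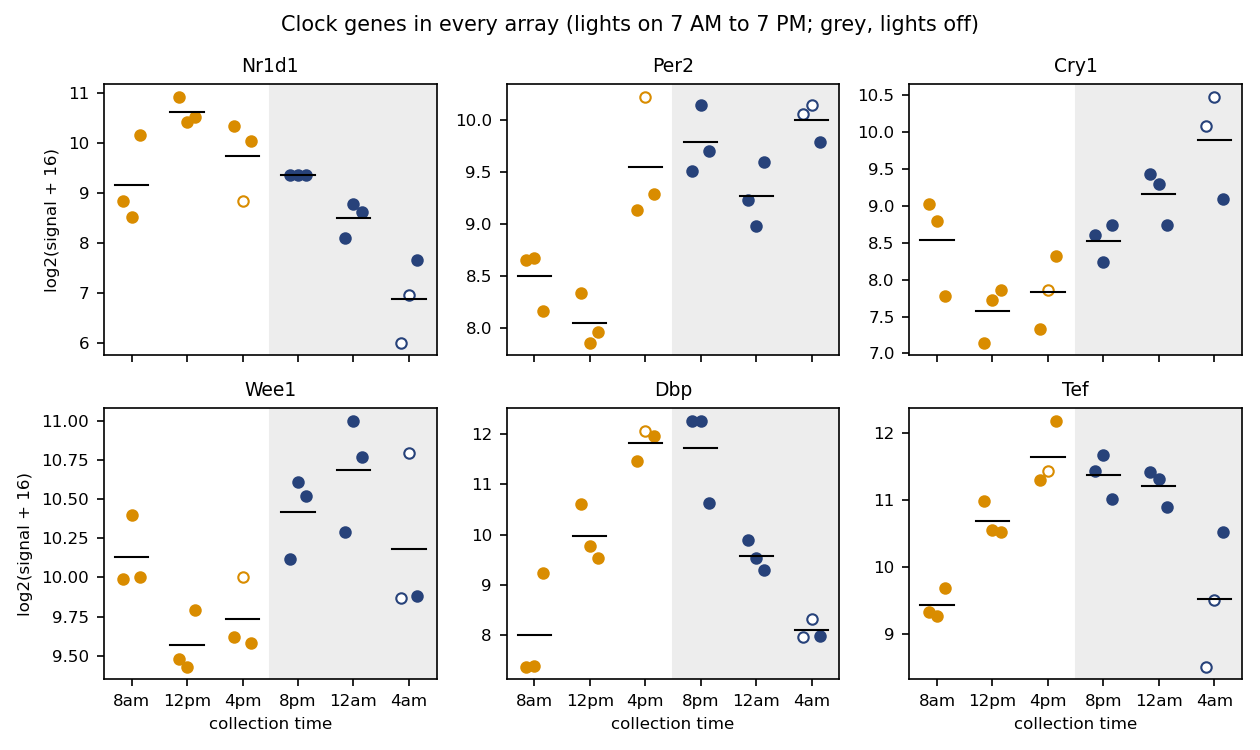
Each panel shows log2(signal + 16) of 1 gene in all 18 arrays by collection time, with bars at the mean of 3 arrays, dark times on grey and the arrays 4pm b, 4am a and 4am b as open points; the vertical axes do not start at 0. Nr1d1 falls from 12pm to 4am, Per2 and Cry1 are lowest at 12pm, and Dbp and Tef have high and low arrays in both phases.

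The other core clock genes shared no direction. Of 16 tested, 11 were higher in the light and 5 lower with 18 arrays (8 and 8 with 15), with a median of 0.09 (0.00 with 15) beside 0.0086 over all genes. Besides Nr1d1, Per2 and Cry1 no core clock gene reached an unadjusted p of 0.05 in either set of arrays by its brightest probe set. The remaining differences with 18 arrays lay between −0.22 (Csnk1d, a kinase of the Per proteins) and 0.38 (Per1). Dimmer probe sets of Csnk1d ran from −0.14 to 0.71 with 18 arrays, so no direction can be given for this gene. The value of 0.71, and 0.53 for a dimmer probe set of Cipc, had an unadjusted p under 0.05. A difference near 0 did not mean a flat gene. Arntl, the activator itself, had −0.03 ± 0.15, made of 1.07 for 8am minus 8pm, 0.25 for 12pm minus 12am and −1.41 for 4pm minus 4am. For Nr1d2 the 3 values were −1.78, 0.70 and 1.51, around 0.14 ± 0.19.

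The outputs of the clock leaned to the dark on average, but not at every pair of times. Of 11 tested genes of this list, 8 were lower in the light with 18 arrays and 10 with 15, and the median was −0.25 and −0.37. The list median was −0.72 for 8am minus 8pm and −0.57 for 12pm minus 12am. For 4pm minus 4am it was 0.44, and 0.31 without the 3 arrays of high ratio. At an unadjusted p under 0.05, 5 were lower with 18 arrays and 6 with 15, beside 2.39% and 2.59% of all genes, and none passed the adjusted test. Wee1, the inhibitory kinase of the mitotic trigger Cdk1, ran from 9.43 to 10.40 (median 9.79) in the light and from 9.87 to 11 (median 10.52) in the dark, and 5 of 9 light arrays lay below every dark array. Its difference was −0.62 ± 0.15 (unadjusted p = 0.0009088, adjusted p = 0.5498) and −0.56 with 15 arrays. A second, dimmer probe set gave 0.05 with 18 arrays and −0.58 with 15. Tspan4, a membrane tetraspanin, had −0.65 ± 0.20, the bZIP factor Hlf −0.45 ± 0.14, the LON domain gene Lonrf3 −0.54 ± 0.18 and the deubiquitinase Usp2 −0.50 ± 0.17. Lonrf3 differed mainly at 4 o'clock (−1.33), whereas Tspan4, Hlf and Usp2 were lower in the light at 8 and 12 o'clock and higher at 4.

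Whether a single light minus dark value stands for the day was tested directly, by asking if the differences of the 3 pairs of times were equal. For 10 genes they were not (0.0777%, limma moderated F test, adjusted p under 0.05). Dbp had −3.72 for 8am minus 8pm, 0.40 for 12pm minus 12am and 3.73 for 4pm minus 4am (adjusted p = 0.0001708), which average to 0.14 ± 0.27. Tef, whose upstream region is shown above, had −1.94, −0.52 and 2.12 (adjusted p = 0.01139). Both genes were low at 8am and 4am and high at 4pm and 8pm, on either side of lights off. The pair values of Nr1d2 and Arntl given above also differed (adjusted p = 0.01374 and 0.02728). Csrnp1, an early response transcription factor, was between 6.15 and 6.39 in the 3 arrays of 4am and between 7.89 and 8.82 in the other 15, with pair values of −0.35, −0.07 and 2.06 (adjusted p = 0.01374). Over all genes the typical size of a pair difference was 0.15 at 8 o'clock, 0.23 at 12 and 0.36 at 4, and 20.8% of genes had the same sign in all 3 pairs. Left out in turn, single arrays moved the count of 10 to between 2 (without 8pm b) and 2405 (without 4am c). It was 3 without 4pm a or 8pm a, 6 without 4pm c, and 5 without the 3 arrays of high Gapdh ratio.

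Genes of mitosis were higher in the light as a group. Of 38 tested members 36 were higher and 2 lower with 18 arrays, and the counts with 15 were 36 and 2. At an unadjusted p under 0.05, 24 were higher and 0 lower, both with 18 arrays and with 15, beside 3.82% and 2.78% of all genes. The median difference was 0.44 with 18 arrays and 0.49 with 15, beside 0.0086 and −0.0064 over all genes, and it stayed between 0.37 and 0.72 under 35 settings. No member passed the adjusted test in either set. In bulk tissue, fewer cells of a kind and less RNA per cell cannot be told apart.

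The morning carried most of it. The median over the 38 genes was 1.12 for 8am minus 8pm, 0.31 for 12pm minus 12am and −0.02 for 4pm minus 4am (−0.01 without the 3 arrays of high ratio). All but 2 members were more than 0.4 higher at 8am than at 8pm, the exceptions being Pttg1 and Tpx2, which were chosen after their values were seen. In the mean over the list, the arrays 8am a and 8am c had the highest values and the 3 of 8pm the lowest.

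**Figure D3:**
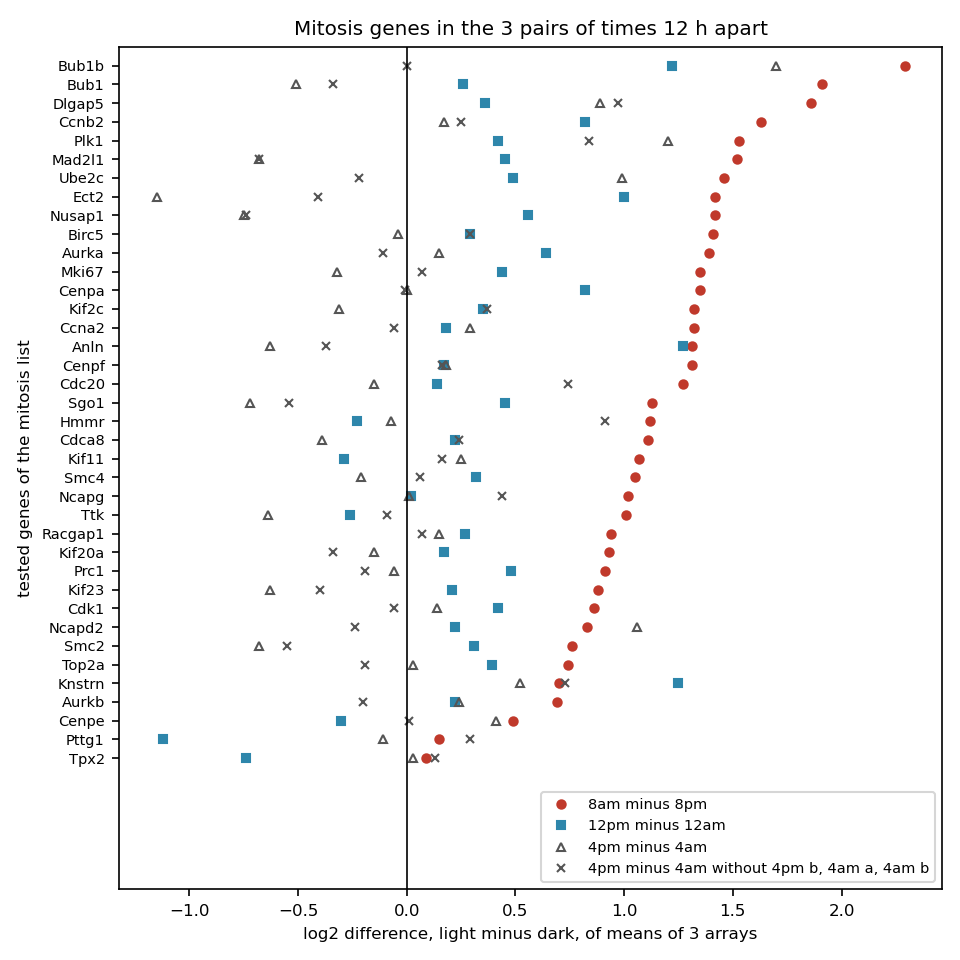
Each row is 1 of the 38 tested mitosis genes and each mark its log2 difference between a light time and the dark time 12 h later or earlier; circles are 8 o'clock, squares 12 o'clock, triangles 4 o'clock and crosses 4 o'clock without 4pm b, 4am a and 4am b (then 2 arrays against 1). The circles lie right of 0 for all genes with a median of 1.12, and the triangles spread around 0 with a median of −0.02.

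Bub1b (chromosome 2, 118598202 to 118641592), a kinase of the spindle checkpoint, had the largest difference of the list. In the light it stayed within 7.96 to 8.97 (median 8.38) and in the dark it ran from 5.72 to 8.50 (median 6.46). Only 12am a (8.28) and 4am c (8.50) reached the light range. The difference was 1.74 ± 0.32, or 3.33-fold (adjusted p = 0.1483), and 1.17 ± 0.25 with 15 arrays (adjusted p = 0.406). Its value for 4pm minus 4am was 1.70 with all arrays and 0.00 without the 3, since 4am a and 4am b supplied the low values.

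Plk1, the kinase that drives assembly of the spindle, ran from 7.59 to 9.99 (median 8.61) in the light and from 6.50 to 8.45 (median 7.93) in the dark. Its difference was 1.05 ± 0.22 with 18 arrays (adjusted p = 0.3458) and 0.93 ± 0.26 with 15, and 5 of 9 light arrays lay above every dark array. The kinetochore gene Knstrn had 0.82 ± 0.20 and the spindle gene Dlgap5 1.04 ± 0.28. Cdc20, which activates the complex that ends mitosis and whose upstream region is shown above, had 0.42 ± 0.19 with 18 arrays and 0.72 ± 0.15 with 15 (adjusted p = 0.406). A second Cdc20 probe set had 0.94 with 18 arrays and 0.73 with 15. Psrc1 and Ckap2, which code for spindle proteins and were not on the list, had 1.12 ± 0.24 and 0.62 ± 0.13 with 18 arrays and 1.41 ± 0.27 and 0.61 ± 0.15 with 15. Psrc1 was at 6.12 to 7.47 at 12pm and at 7.01 to 8.46 at 4am, so its high and low arrays did not divide by phase.

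**Figure D4:**
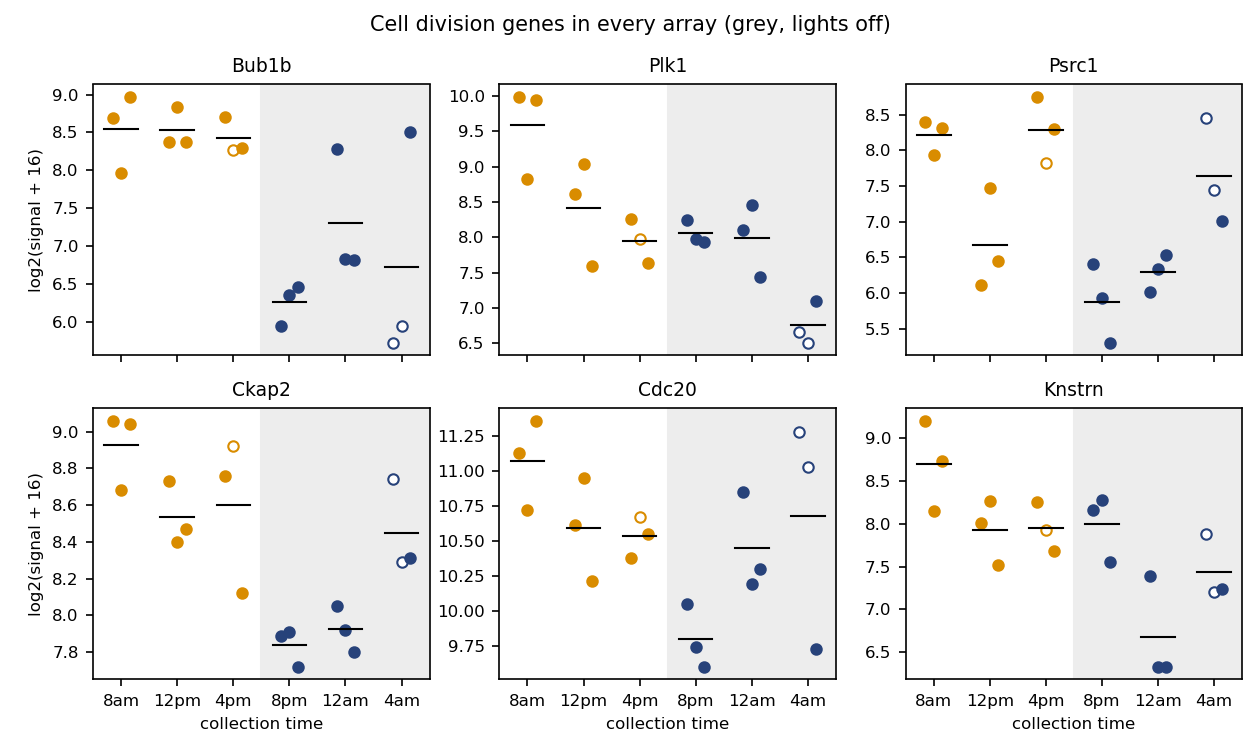
Each panel shows log2(signal + 16) of 1 cell division gene in all 18 arrays by collection time, with bars at the mean of 3 arrays, dark times on grey and the arrays 4pm b, 4am a and 4am b as open points; the vertical axes do not start at 0. All Bub1b light arrays are at 7.96 or above, and the 8pm arrays are low in each panel but those of Plk1 and Knstrn.

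DNA replication, the step before mitosis, did not share the direction. Of 30 tested genes, 22 were lower in the light and 8 higher with 18 arrays (24 and 6 with 15), with a median of −0.18 (−0.17 with 15). At an unadjusted p under 0.05 with 18 arrays, 2 were lower, beside 2.39% of all genes. They were Ccne2, a cyclin of entry into replication (−0.47 ± 0.18), and Cdt1, which licenses origins (−0.43 ± 0.20). With 15 arrays the 2 values were −0.39 and −0.15. A dimmer probe set of Cdt1 had −0.04 with 18 arrays and −0.27 with 15. Genes of the crypt base, where the stem cells sit, were higher in the light in 12 of 16 with 18 arrays and in 13 with 15, with medians of 0.07 and 0.17. Smoc2, a matrix protein gene of stem cells, had 0.51 ± 0.15, the Wnt target Axin2 0.45 ± 0.17, the stem cell receptor Lgr5 0.39 ± 0.16 and the Wnt regulator Rnf43 0.49 ± 0.21, all at an unadjusted p under 0.05 with 18 arrays. With 15 arrays the 4 values were 0.30, 0.19, 0.16 and 0.28.

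Genes of B and plasma cells leaned the other way, and other immune lists did so less evenly. Of 15 B and plasma cell genes, 14 were lower in the light and 1 higher in either set of arrays. The median was −0.37 with 18 arrays and −0.38 with 15, beside 0.0086 and −0.0064 over all genes. At an unadjusted p under 0.05, 4 were lower with 18 arrays, beside 2.39% of all genes. The B cell surface gene Ms4a1 ran from 7.45 to 9.67 (median 8.01) in the light and from 7.92 to 10.55 (median 9.63) in the dark, and the 3 arrays of 4am were highest. Its difference was −0.95 ± 0.36. The Fc receptor-like gene Fcrla had −0.55 ± 0.18, the IgM receptor Fcmr −0.75 ± 0.30 and the IgM heavy chain Ighm −0.56 ± 0.23. The signal summed over the list ran from 5357 to 16596 in the light and from 8301 to 20985 in the dark, with the top in 4am a, and how much lymphoid tissue each piece of colon held was not tested. MHC class II genes, which present antigen, were lower in 8 of 9 with 18 arrays and in 9 of 9 with 15. The medians were −0.15 and −0.28, and the median for 4pm minus 4am was 0.30 with 18 arrays and −0.10 with 15. H2-Aa had −0.52 ± 0.16 and H2-DMb2 −0.67 ± 0.27, and with 15 arrays −0.27 and −0.61. All 5 T cell genes that could be tested were lower with 18 arrays and 3 of 5 with 15. Of 16 macrophage and complement genes 12 were lower with 18 arrays and 9 with 15, with medians of −0.14 and −0.04. Of 17 interferon response genes 11 and 13 were lower, with medians of −0.05 and −0.10. The interferon median for 4pm minus 4am was 0.54 with 18 arrays.

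**Figure D5:**
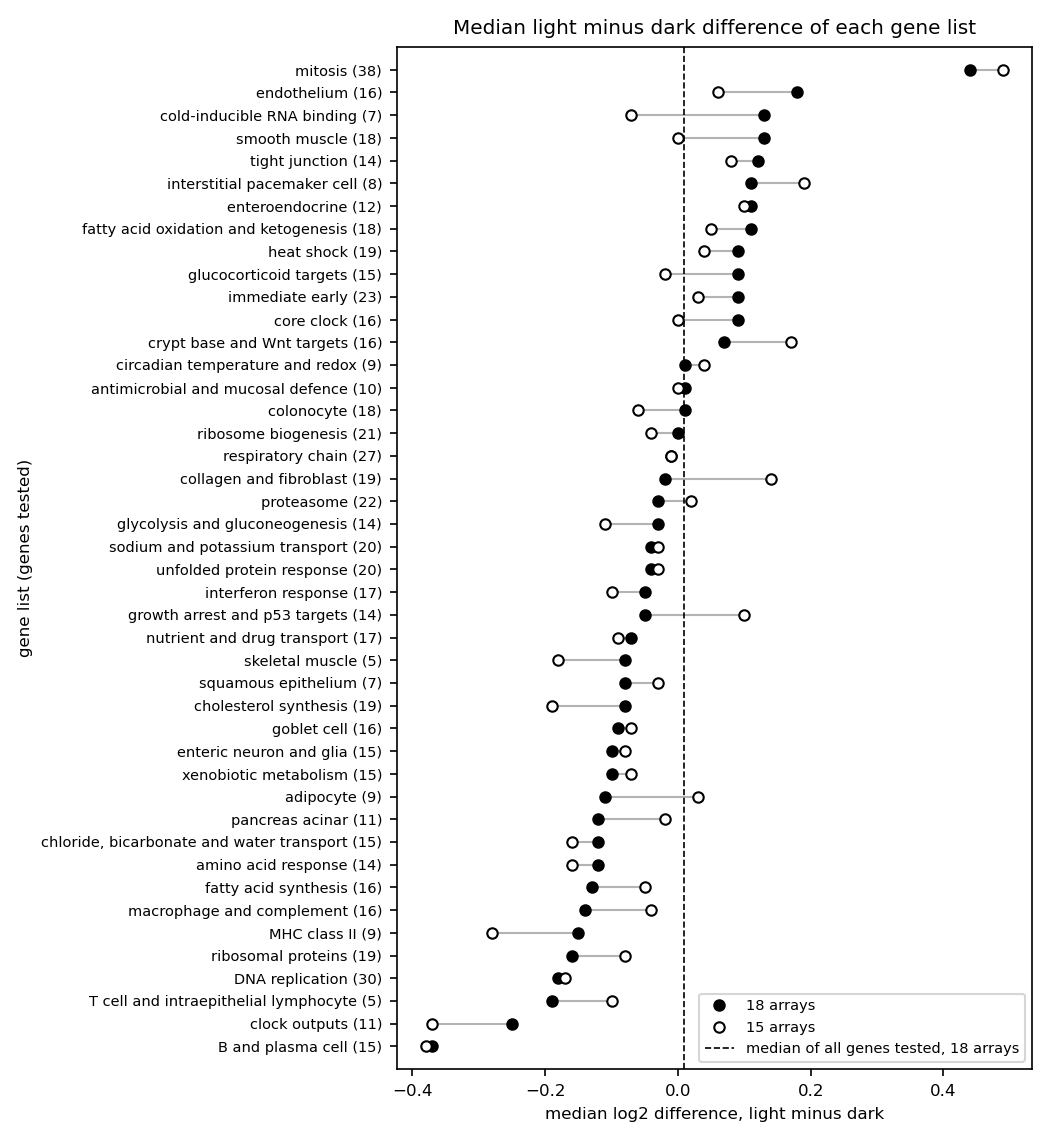
Each row is a gene list with its number of tested genes, and the horizontal axis is the median log2 difference of its genes, light minus dark; filled points use 18 arrays and open points 15, and the dashed line is the median of all genes with 18 arrays (0.0086). The mitosis list lies farthest right, at 0.44 and 0.49, and the B and plasma cell list farthest left with −0.37 and −0.38.

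Beyond these lists, the rule for single genes named the 10 with the lowest p in each direction among differences of at least 0.5 (1 of the 10 higher ones has a mapping code for a name). Ang4 (chromosome 14, 51763892 to 51773590), which codes for an antimicrobial ribonuclease of the gut lining, had the largest difference, 2.13 ± 0.50 or 4.37-fold with 18 arrays (adjusted p = 0.4069) and 2.07 ± 0.55 with 15. It ran from 7.06 to 12.70 (median 9.35) in the light and from 5.91 to 8.80 (median 8.03) in the dark. The 2 arrays 4pm a and 4pm b, at 12.39 and 12.70, were far above the third, 4pm c, at 8.67. A second probe set gave 2.41. Tbccd1, which positions the centrosome, was the nearest to full separation, with 8 of 9 light arrays (9.05 to 9.85) above every dark array (8.27 to 9.17). Its difference was 0.67 ± 0.14 and 0.47 ± 0.13 with 15 arrays. The matrix gene Spon2 had 0.67 ± 0.16 and 0.53 ± 0.11, and the ubiquitin ligase Phrf1 0.95 ± 0.22 and 0.55 ± 0.18.

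Among the genes lower in the light, Akr1c19, an aldo-keto reductase, ran from 10.71 to 11.91 (median 11.14) in the light and from 11.37 to 12.70 (median 11.85) in the dark. Its difference was −0.70 ± 0.16, and −0.48 with 15 arrays. Clca4a, of the chloride channel regulator family, had −0.53 ± 0.13 and −0.38, the cilium gene Cys1 −0.68 ± 0.15 and −0.63, the transcription factor Sox21 −0.66 ± 0.15 and −0.48, and the potassium channel genes Kcnc1 and Kcnmb2 −0.86 ± 0.20 and −0.76 ± 0.19. Timm50, part of the import machinery of mitochondria, had −0.79 ± 0.18, and −0.92 ± 0.15 with 15 arrays (adjusted p = 0.07538). Its other probe set had 0.62 and 0.21, the opposite sign, so no direction can be given for this gene.

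With 15 arrays the same rule added Wdr48 (0.62 ± 0.14), a partner of deubiquitinases, Hs1bp3 (1.03 ± 0.24) and the RNA helicase Ddx6 (0.60 ± 0.15) among the higher genes. It added Pcare (−0.83 ± 0.18), the endotoxin co-receptor Ly96 (−0.80 ± 0.18), the caspase Casp8 (−0.59 ± 0.13), the transcription cofactor Supt7l (−0.69 ± 0.16), the E-box factor Usf1 (−0.58 ± 0.14) and Pdia4 (−1.01 ± 0.24), a folding enzyme of the endoplasmic reticulum, among the lower ones. None passed the adjusted test (0.406 to 0.4735 for those 9 genes and Cdc20). The other Ddx6 probe sets had 0.58, −0.13 and −0.10 with 15 arrays, which differ in sign. Pdia4 showed how the times differ. It was between 10.22 and 10.92 in the 6 arrays of 8am and 8pm and between 4.93 and 7.86 in the other 12. In the 15 arrays 2 genes (0.0155%) separated the phases fully, the mitochondrial protease Pmpcb with 0.44 ± 0.11 and Tmem159 with 0.33 ± 0.10, and neither passed (adjusted p = 0.4522 and 0.6555).

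Transport and metabolism genes gave few differences. Over all genes 51.4% were higher in the light with 18 arrays and 48.1% with 15, and the list counts stand beside these shares. Of 15 genes of chloride, bicarbonate and water transport 9 were lower with 18 arrays and 11 with 15. Besides Clca4a, the chloride exchangers Slc26a3 and Slc26a6 had −0.34 ± 0.12 and −0.39 ± 0.17 and the carbonic anhydrase Car2 −0.23 ± 0.09. Of 20 sodium and potassium transport genes 9 were higher and 11 lower with 18 arrays. At an unadjusted p under 0.05, 2 were higher and 3 lower, beside 3.82% and 2.39% of all genes. Wnk4 was among the higher ones, with −0.16 to 0.61 under 35 settings. The hormone-induced kinase Sgk1 had −0.56 ± 0.21 and −0.53 with 15 arrays, the colonic proton pump Atp12a −0.32 ± 0.11 and the exchanger regulator Slc9a3r1 −0.27 ± 0.09. Of 15 glucocorticoid targets 9 were higher in the light and 6 lower with 18 arrays, and 7 and 8 with 15. The list medians were 0.09 and −0.02, so the list had no shared direction. Sgk1, which is on this list too, and Nfkbia were lower in the light with 18 arrays. The metal-binding metallothionein genes Mt2 and Mt1 had 0.96 ± 0.28 and 0.71 ± 0.21, and 0.78 and 0.64 with 15 arrays. Mt2 was highest in 4pm b and 4pm c (13.23 and 13.26) and lowest in 8pm c (10.18), and the phases overlapped. In the xenobiotic list 10 of 15 were lower, with −0.83 ± 0.24 for Gsta4, a glutathione transferase, −0.52 ± 0.19 for Aldh1a1, which oxidises retinal, and 0.30 ± 0.13 for the sulfotransferase Sult1a1.

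Among genes of fatty acid oxidation and ketogenesis 12 of 18 were higher in the light, beside 51.4% of all genes. At an unadjusted p under 0.05, 1 was higher and 1 lower with 18 arrays, beside 3.82% and 2.39% of all genes. Slc25a20 of this list was lower in the light, with −0.58 to −0.12 under 35 settings. Cpt1a, which admits fatty acids to mitochondria, had 0.34 ± 0.10. The dimmer probe sets of Cpt1a had −0.02 and −0.17 with 18 arrays and 0.15 and 0.27 with 15. Of 20 unfolded protein response genes 12 were lower and 8 higher with 18 arrays, and 15 and 5 with 15. At an unadjusted p under 0.05 with 18 arrays, 2 were lower and 2 higher, beside 2.39% and 3.82% of all genes. The chaperone Hyou1, lower in the light, had −0.74 ± 0.24 and −0.42 with 15 arrays. Ddit3 and Syvn1 were higher, and Ddit3 had 0.60 with 18 arrays and 0.24 with 15. Of 19 cholesterol synthesis genes 12 were lower with 18 arrays and 17 with 15, with medians of −0.08 and −0.19. The 27 respiratory chain genes had a median of −0.01 in either set and the 22 proteasome genes −0.03 and 0.02.

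The 4pm and 4am times hold all arrays of high Gapdh ratio, and after the data were seen the other 4 times were fitted alone (8am and 12pm against 8pm and 12am, 6 arrays each, ratios of 0.746 to 1.12). These times cover only part of each phase, so the value is a contrast of early light with early dark. In this fit 57 genes passed, 33 higher in the light (0.256%) and 24 lower (0.186%), and 3 of them have clone or mapping names. For 21 of the 57 the 6 light arrays did not overlap the 6 dark arrays. The 57 were chosen by this same contrast in these same arrays, which favours such separation. The share without overlap over all genes was not counted for these 12 arrays. The mitosis list had a median of 0.72, and 7 of its 38 genes passed, all higher: Bub1b 1.75 ± 0.27, Anln 1.29 ± 0.21, Ccnb2 1.22 ± 0.24, Ect2 1.21 ± 0.21, Nusap1 0.99 ± 0.20, Mad2l1 0.98 ± 0.19 and Mki67 0.90 ± 0.18. They act in the checkpoint (Bub1b, Mad2l1), in the cutting of the cell (Anln, Ect2), on the spindle (Nusap1), as a cyclin of mitosis (Ccnb2) and on the chromosome surface (Mki67).

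The clock outputs passed the test in the other direction. All 11 were lower in these light arrays, with a median of −0.71, and 7 of 11 passed: Dbp −1.66 ± 0.34, Tspan4 −1.60 ± 0.20, Tef −1.23 ± 0.14, Usp2 −0.96 ± 0.13, Hlf −0.80 ± 0.14, Wee1 −0.71 ± 0.14 and Ephx1, an epoxide hydrolase, −0.64 ± 0.11. Of the core clock, Per2 (−1.25 ± 0.16) was lower and Clock (0.63 ± 0.12) higher. Tspan4 ran from 7.04 to 8.01 in the light and from 8.56 to 10.07 in the dark, with no overlap, and Tef, at 9.27 to 10.99 against 10.90 to 11.67, overlapped slightly. For 4pm minus 4am only 18 of the 57 had the sign they had here, and 11 without the 3 arrays of high ratio. Cldn8, a tight junction gene of the colon, was one that turned, with 0.93 ± 0.17 here and −1.48 for 4pm minus 4am. Other genes with large differences were Med21, a mediator subunit (1.30 ± 0.23), and the collagen cross-linker Lox (1.22 ± 0.24), which were higher, and the tubulin gene Tuba8 (−1.16 ± 0.21), which was lower. Med21 had 0.12 for 8am minus 8pm and 2.48 for 12pm minus 12am, and its light and dark arrays overlapped. The count of 57 moved with single arrays, to 7 without 8pm a, 10 without 8pm b, 14 without 8am c, 23 without 12pm a or 12pm b and 89 without 12pm c.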

How the data were processed

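The deposited table gives a linear intensity for every probe set in every array, which the authors computed in the Affymetrix program GCOS (version not given in the sources used here), per the submitters' processing notes. The deposited scaling was kept: the mean of each of the 18 arrays, trimmed by 2% at either end, was 500. The table gives no detection calls. The number of arrays and the spread between them limit the precision. Of 45037 probe sets that are not controls, 34945 carried 1 gene symbol, 932 several and 9160 none in the platform annotation. Values were taken as log2(signal + 16). Probe sets with a mean at or above the 40th percentile (7.10) were kept, and each gene was represented by its probe set of highest mean. A fit with 1 mean per time was made with limma 3.58.1 in R 4.3.3 (lmFit, eBayes with trend). Its contrast was the mean of the 3 light times minus that of the 3 dark times, two-sided, with Benjamini-Hochberg adjustment over 12870 genes and a threshold of 0.05. The differences of the 3 pairs of times 12 h apart were compared by a moderated F test. Fits were tested on simulated data.

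Named genes were those passing with the largest difference, filled up to 10 per direction by the lowest p at a log2 difference of at least 0.5, with 18 and with 15 arrays. Added were the 2 to 4 list members of lowest p with 18 arrays, clock genes and the 5 lowest p of the pair test. The comparison, the 46 gene lists and the rule were chosen with earlier results of these data known. Lists are described by counts and medians. Alternatives covered the added constant, scaling, filter, probe set, model, moderation, array weights, a Gapdh ratio covariate and left-out arrays.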

Additional observations from a re-analysis of the deposited data

Results flagged for a closer look

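The light minus dark difference varied between the 3 pairs of times 12 h apart in 9 named genes (limma moderated F test, adjusted p). They were Dbp (0.0001708), Tef (0.01139), Csrnp1 (0.01374), Nr1d2 (0.01374), Ephx1 (0.01801), Tspan4 (0.02), Arntl (0.02728), Slc36a1 (0.02958) and Cldn8 (0.03819). Slc36a1, an amino acid transporter, had −0.84 for 8am minus 8pm, 0.50 for 12pm minus 12am and 1.48 for 4pm minus 4am. Tspan4 had −1.41, −1.79 and 1.25, and Ephx1 −0.72, −0.57 and 1.03.

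In Ddx6, a gene of RNA turnover, 1 array of each phase lay far from the rest. In the light 4pm b was at 10.15, with the nearest of the other arrays at 11.78, and in the dark 4am a was at 8.00, with the nearest at 10.50. Both are arrays of high Gapdh 3′ to 5′ ratio, and the part of that ratio was not tested. A gap of this size was looked for in 58 groups of 9 arrays and found in these 2; chance gives about 1 in 20.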

How the results depend on the processing

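Nr1d1 kept its sign in 35 settings with 18 arrays (0.97 to 1.91) and in 28 with 15, as did Per2 (−1.25 to −0.66 with 18). Their adjusted p with 15 arrays ran from 0.001894 to 0.9834 and from 0.007207 to 0.6865. With 18 arrays the count of 0 became 1 with quantile normalization or median centring, 1942 with array weights, 2 without 4pm b, 4am a and 4am b, and 57 without the 4pm and 4am arrays. The weights ran from 0.119 (4am c) to 6.03 (4pm a). With 15 arrays the count of 2 became 0 without a filter, with 2 means, with the replicate letter as a block and without a trend. It became 1 with the pairs of times as a block, with array weights and with the Gapdh ratio as covariate. The count of 10 genes that differed between pairs became 6 with the replicate block, 3064 with array weights and 5 without the 3 arrays. The 57 genes of the 12 arrays became 37 without a filter, 37 with the replicate block and 547 with array weights; these settings, like the fit, were chosen after seeing the data. Left out in turn, single arrays gave 0 to 955 genes with 18 arrays, 0 to 6 with 15 (6 without 12am a, 4 without 12pm a), 2 to 2405 for the pairs and 7 to 89 for the 12. The cause was not tested. No pairing by letter was seen: of 45 same-letter pairs 6 correlated over 0.1, and 4 of 18 arrays correlated best with their own letter. The labels do not say what the letters mean, so these correlations cannot settle whether arrays are paired. Signs turned for these genes with 18 arrays: Arntl (0.66 without the 4pm and 4am arrays; 0.00 with the Gapdh covariate, −0.11 to 0.03 with single arrays left out), Dbp (−1.66 without those times, −0.07 to 0.24 with single arrays left out), Tef (−0.28 to 0.06, above 0 without 4am c), Slc26a3 (0.00) and Muc13 (0.05) with the mean of probe sets. Without the 4pm and 4am arrays, Csrnp1 (−0.21), Nr1d2 (−0.54), Wnk4 (−0.16), Slc36a1 (−0.17) and Muc13 (0.09) also turned.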

Other observations

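The 6 arrays of 8am and 8pm, 12 h apart, resembled each other in genes that set them apart from the other 12. Some of these genes also differed between light and dark, such as Pdia4 with −0.84 with 18 arrays and −1.01 with 15. Of 12870 genes, 167 lay above the other 12 arrays in all 6 and 179 lay below. Among the largest named differences after Pdia4, Rnasek, a subunit of the proton pump of vesicles, was between 10.69 and 11.22 in those arrays and between 7.19 and 9.34 in the others, and Tm7sf2, a reductase of cholesterol synthesis, between 10.58 and 11.39 against 6.51 to 9.20. The RNA editing enzyme gene Adarb1 was between 6.84 and 7.49 against 8.87 to 10.86. Their light minus dark differences with 18 arrays were 0.05 (Rnasek), 0.24 (Tm7sf2) and −0.37 (Adarb1). The 4 genes were chosen after their values were seen. The labels give no date or batch, so a time of day and a shared handling of these arrays cannot be told apart.

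Genes of the exocrine pancreas followed no phase. The median over 11 such genes was −0.22 for 8am minus 8pm, −1.98 for 12pm minus 12am and 2.48 for 4pm minus 4am. Their summed signal was highest in 12am b (252606). The list holds Sycn, Zg16 and Cela1, which were high in all arrays and add to every sum.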
